A study of Mus musculus with 6 samples.

Results

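The data described here are the transcript counts of 10 genes that classically activated macrophages use to make inflammatory cytokines and effector metabolites: Nos2, Gch1, Acod1, Ido1, Il1a, Il1b, Tnf, Il12a, Il12b and Il27. They were taken by gene symbol, with earlier results of these data known, and are 10 of the 52550 genes counted. Of these, 7 had enough counts to be among the 16402 genes tested, and Il12a, Il12b and Ido1 did not. The libraries were made from the RNA of primary bone marrow-derived macrophages (BMDMs) of C57BL/6 mice. In the MSR1 KO group the mice lacked macrophage scavenger receptor 1, a receptor that takes up modified lipoproteins and other polyanionic ligands, and in the MSR1 WT group they did not. Both groups had been cultured for 7 days with macrophage colony-stimulating factor (M-CSF, 25 ng/ml) and then for 48 h with bone marrow mesenchymal stromal cells (BMSCs) on the other side of a transwell membrane. No activating agent such as lipopolysaccharide or interferon gamma is named for either group, and the age of the mice is not given in the sources used here. The knockout is described as general, not as driven in one cell type. There were 3 libraries per group, called biological replicates without saying whether each came from its own mouse, so p-values measure the spread between these libraries.

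In the textbook scheme, classical activation of a macrophage by interferon gamma and by microbial products switches on this group of genes through interferon-regulatory and NF-κB factors. Interleukin 1, TNF and the interleukin 12 family are its secreted signals. Its enzymes make nitric oxide from arginine, itaconate from a citric acid cycle intermediate, and kynurenines from tryptophan. Alternative activation, the usual counterpart, is instead set off by interleukin 4 and interleukin 13 and is marked in the mouse by genes such as Arg1, Retnla and Mrc1.

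Library totals ran from 36143518 to 47417448 counts. Msr1 itself, the targeted gene, had 2118, 1825 and 2000 counts where it was deleted and 7543, 9163 and 9219 counts in the wild type, so the groups were well apart and fit their labels, although a remainder of counts was present in the knockout. The list of 16 macrophage identity genes, all with enough counts to be tested, summed to 38250 to 39440 CPM, counts scaled to a common library size, in MSR1 KO and 36870 to 39270 CPM in MSR1 WT, and Lyz2 alone made up 12640 to 15870 CPM. Of the 16 genes 9 were higher in every MSR1 KO library than in every MSR1 WT library, against 12.1% of all tested genes. Another 1 was lower in all, against 13.4% of all tested genes. The median log2 fold change of the 16 genes was only 0.14. Fcgr1, an Fc gamma receptor gene, was a higher DEG (log2 fold change 1.14, adjusted p of 0.0182 in edgeR's quasi-likelihood test with Benjamini-Hochberg adjustment). In these bulk samples, fewer cells of a type and less RNA per cell cannot be told apart. CPM are counts per 1e6 of the library total after scaling by TMM, the trimmed mean of M-values.

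Of the 10 genes, Acod1 and Il27 were higher in the MSR1 KO macrophages by the study's definition of a differentially expressed gene (DEG), which is a fold above 1.5 with an unadjusted p below 0.05. None was lower. Among all tested genes 8.64% were DEGs, 3.59% higher and 5.05% lower. Every knockout library was above every wild type library in 3 of the 7 tested genes, Acod1, Il27 and Gch1, against 12.1% of all tested genes, and the reverse, found in 13.4% of all tested genes, occurred in none. Gch1 had an unadjusted p below 0.05 but a smaller fold. Il12b had counts in all 3 MSR1 KO libraries and in none of the MSR1 WT libraries. Tnf, Il1a, Il1b and Nos2 overlapped between the groups, Il12a was near its detection limit, and Ido1 had no count at all. None of the 7 tested genes passed an adjusted p of 0.05 in edgeR's quasi-likelihood test with Benjamini-Hochberg adjustment, against 4.91% of all tested genes (2.25% higher and 2.66% lower); 3 had an unadjusted p below 0.05, against 18.9% of all tested genes, and DESeq2 gave 1 adjusted p below 0.05, that of Acod1. Adjusted calls over all genes fell to 18 higher and 53 lower without MSR1 WT replicate 1, from 369 and 436.

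**Figure D1:**
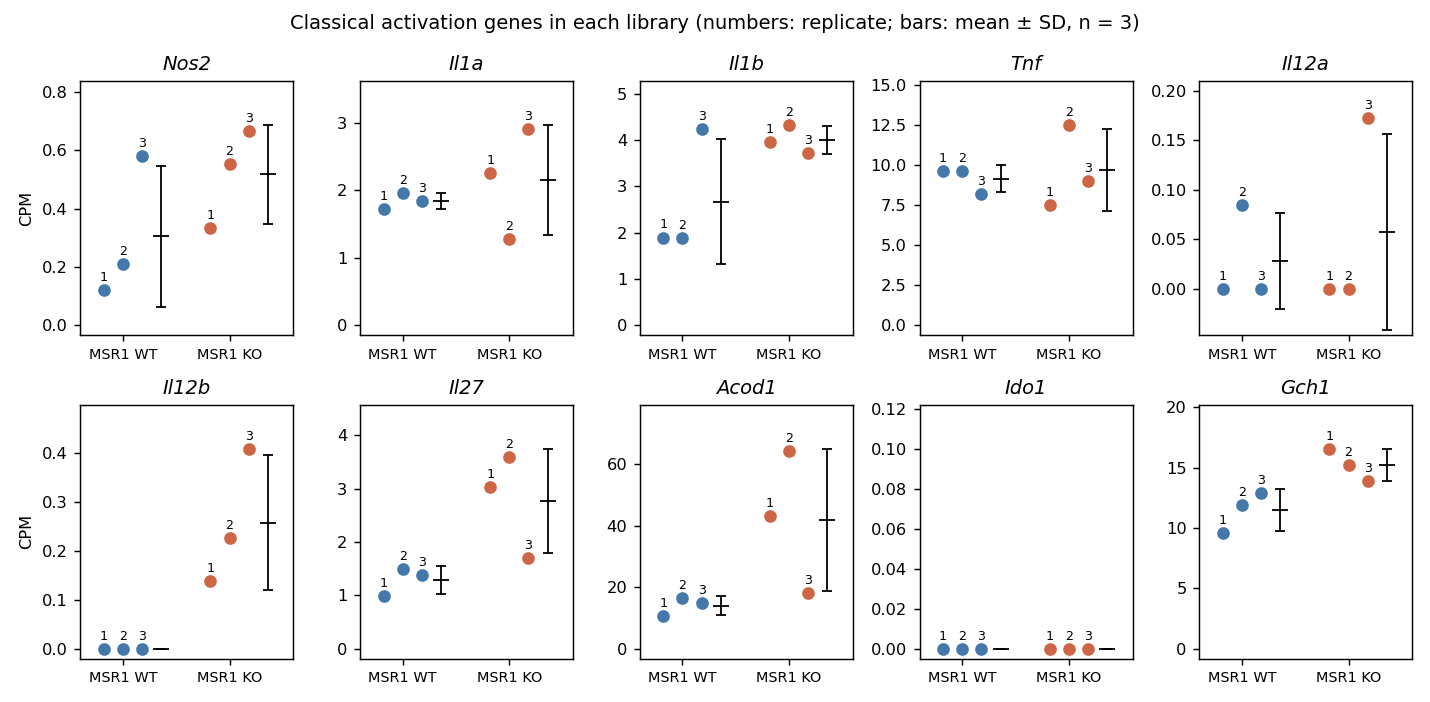
CPM (linear y axis, one scale per panel) of the 10 genes in each library, with MSR1 WT in blue and MSR1 KO in orange, the replicate number above each point and bars giving the mean ± SD of 3 libraries. The groups are apart for Acod1, Il27, Gch1 and Il12b, and MSR1 WT replicate 3 lies among the MSR1 KO libraries for Il1b.

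The genes were far apart in abundance. On the scale of CPM per kilobase of exon, on which genes can be compared, the MSR1 WT means ran from Tnf (5.58) and Acod1 (5.34) through Gch1 (1.84), Il1b (1.40), Il27 (1.26) and Il1a (0.932) to Nos2 (0.0690). The ranges of Tnf and Acod1 overlapped, as did those of Gch1 and Il1b, of Il1b and Il27, and of Il27 and Il1a. In the MSR1 KO libraries Acod1 led with a mean of 15.95 CPM per kilobase, followed by Tnf (5.91), Il27 (2.72), Gch1 (2.44), Il1b (2.097), Il1a (1.09) and Nos2 (0.117). There the ranges of Acod1 and Tnf still overlapped, since the lowest Acod1 library was below the highest Tnf library. Il27 thus stood below Gch1 and Il1b in the wild type order and above them in the knockout order, with overlapping ranges among the 3 genes in the knockout.

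Acod1 (chromosome 14, 103046977 to 103056573, plus strand) encodes the mitochondrial aconitate decarboxylase that makes itaconate. Its level was 43.0, 64.4 and 18.1 CPM in MSR1 KO replicates 1 to 3, and 10.55, 16.65 and 14.8 CPM in the MSR1 WT replicates. Every MSR1 KO library was above every MSR1 WT library, but MSR1 KO replicate 3 lay just above them, and the highest MSR1 KO library was 3.55 times the lowest. Its mean was 41.8 ± 23.1 CPM (SD, n = 3) for MSR1 KO, compared with 14.0 ± 3.13 CPM (SD, n = 3) for MSR1 WT. The fitted fold was 2.98, with a 95% interval of 1.58 to 5.64 and an unadjusted p of 0.00411. After Benjamini-Hochberg adjustment over all tested genes edgeR's quasi-likelihood test gave an adjusted p of 0.0665, with a range of 0.0196 to 0.223 over the alternatives. The lower end of that range came from leaving out MSR1 KO replicate 3, without which the log2 fold change rose from 1.58 to 1.94. The upper end came from leaving out MSR1 WT replicate 1, without which the log2 fold change was 1.41. Without MSR1 KO replicate 2 it fell to 1.12. Acod1 was a higher DEG under every alternative run.

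None of the 15 tested genes of the list of itaconate and neighbouring citric acid cycle enzymes was a DEG, and their median log2 fold change was -0.03, against 0.00 over all tested genes.

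Nos2 (chromosome 11, 78920787 to 78960254, plus strand), the inducible nitric oxide synthase, was scarcely transcribed. The 3 MSR1 KO replicates had 12, 22 and 31 counts, the 3 MSR1 WT replicates 5, 10 and 24, that is 0.518 ± 0.169 CPM (SD, n = 3) against 0.304 ± 0.244 CPM (SD, n = 3). MSR1 WT replicate 3 was above 2 of the MSR1 KO libraries, and the groups overlapped. The fold of 1.71 had a 95% interval of 0.604 to 4.83, and the adjusted p of edgeR's quasi-likelihood test with Benjamini-Hochberg adjustment was 0.594. The log2 fold change of 0.77 became 1.62 without MSR1 WT replicate 3, still with an unadjusted p of 0.0529. It fell to 0.40 without MSR1 WT replicate 1, and these were the ends of its range when each library was left out. At this depth a difference in Nos2 of the size seen for Acod1 lay within the interval.

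Gch1 (chromosome 14, 47153895 to 47189413, minus strand) encodes GTP cyclohydrolase 1, the first enzyme of the synthesis of tetrahydrobiopterin, the cofactor that nitric oxide synthases need. Its level was 16.6, 15.2 and 13.9 CPM in MSR1 KO and 9.56, 11.9 and 12.9 CPM in MSR1 WT. The groups did not overlap, and all 3 MSR1 KO libraries were the higher. The means were 15.2 ± 1.32 CPM (SD, n = 3) and 11.5 ± 1.73 CPM (SD, n = 3). The fold of 1.33 (95% interval 1.05 to 1.67, unadjusted p of 0.0219) was below the study's limit of 1.5, and the adjusted p of edgeR's quasi-likelihood test with Benjamini-Hochberg adjustment was 0.169. The unadjusted p went to 0.069 without MSR1 KO replicate 1 and to 0.065 without MSR1 WT replicate 1.

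Of the other genes of the nitric oxide and tetrahydrobiopterin pathway, 12 were tested, 3 were higher DEGs and none was lower. Ass1, the argininosuccinate synthase that remakes arginine from citrulline, had a log2 fold change of 0.78 and an adjusted p of 0.0226 in edgeR's quasi-likelihood test with Benjamini-Hochberg adjustment. The other two were the arginases Arg1 and Arg2, which use up the same arginine, and of which Arg1 is the marker of alternative activation. Arg1 stood at 24.4, 4.55 and 5.10 CPM in MSR1 KO replicates 1 to 3, and its log2 fold change of 1.62 fell to 0.40 without MSR1 KO replicate 1. Arg2 had a log2 fold change of 0.72 and lost the unadjusted p below 0.05 when MSR1 KO replicate 1, MSR1 KO replicate 3 or MSR1 WT replicate 2 was left out.

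Ido1 (chromosome 8, 24584136 to 24597009, minus strand) encodes indoleamine 2,3-dioxygenase, which starts the breakdown of tryptophan to kynurenine. It had 0 counts in all 6 libraries, which allows a level of up to 0.0119 CPM if 3 counts over all 6 libraries are taken as the limit. Intervals and limits of this kind cover counting error only. A difference between the groups was therefore not detectable at this depth. Further along the pathway, Kynu, the kynureninase, was higher with a log2 fold change of 1.09 (unadjusted p of 0.00337 in edgeR's quasi-likelihood test). Wars, the cytosolic tryptophanyl-tRNA synthetase, is not a step of this breakdown but was on the same list, and was higher with 0.73. Kynu and Wars were the 2 DEGs among 12 tested genes of the tryptophan and kynurenine list. Both were higher, with no adjusted p below 0.05 by edgeR's quasi-likelihood test with Benjamini-Hochberg adjustment. Without MSR1 KO replicate 2 the log2 fold change of Wars was 0.36, below the limit on the fold.

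Both interleukin 1 genes lie on chromosome 2 and on the minus strand, Il1a at 129299610 to 129309972 and Il1b at 129364570 to 129371139. Il1b, whose product is cut by inflammasome caspases before it is released, had 3.95, 4.32 and 3.72 CPM in MSR1 KO, compared with 1.89, 1.88 and 4.24 CPM in MSR1 WT. The knockout libraries were close together, and MSR1 WT replicate 3 lay among them at more than the level of its 2 fellow replicates, so the groups overlapped. The fitted log2 fold change was 0.59, which had a 95% interval of 0.885 to 2.54 as a fold, and the adjusted p of edgeR's quasi-likelihood test with Benjamini-Hochberg adjustment was 0.401. Without MSR1 WT replicate 3 the log2 fold change rose from 0.59 to 1.08, the adjusted p of edgeR's quasi-likelihood test with Benjamini-Hochberg adjustment became 0.0392, and Il1b met the study's definition. One library therefore decided this call.

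Il1a, whose product acts on the same receptor and can do so from the cell surface, had 2.26, 1.28 and 2.91 CPM in MSR1 KO and 1.72, 1.96 and 1.84 CPM in MSR1 WT. The wild type libraries were close together, and the knockout libraries lay on both sides of them. The fold was 1.17 (95% interval 0.701 to 1.95), and its direction turned without MSR1 KO replicate 3, to a log2 fold change of -0.06. Of the bases in the exons of Il1a, 11.2% are shared with Gm14023 on the other strand, and the files do not say whether strand was used in counting, so reads there cannot be told apart.

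The partners of these cytokines were described by a list of the interleukin 1 family and its signalling, of which 21 were tested, 4 were higher DEGs and 1 was a lower DEG. The median log2 fold change was 0.39, against 0.00 over all tested genes. Il18, the family member closest to Il1b in its processing, was higher by a log2 fold change of 0.71, and Il18bp, its soluble inhibitor, by 1.21. The receptor subunits Il18r1 and Il18rap were higher by 1.07 and 0.81. Il18, Il18bp and Il18rap also had adjusted p-values of 0.0267, 0.0377 and 0.0377 in edgeR's quasi-likelihood test with Benjamini-Hochberg adjustment. The lower DEG was Il1rn, the interleukin 1 receptor antagonist, at -0.59. Leaving out single libraries ended the calls of Il18r1 and of Il1rn, in 4 and 3 of the 6 cases.

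Tnf (chromosome 17, 35199381 to 35202007, minus strand) was the most abundant of the cytokine genes per kilobase and had the smallest fold of the 7 tested. Its level was 7.52, 12.5 and 9.04 CPM in MSR1 KO, compared with 9.63, 9.63 and 8.18 CPM in MSR1 WT. The knockout libraries held both the highest and the lowest value. The fold was 1.06 with a 95% interval of 0.774 to 1.45, which leaves out changes of the study's size in both directions. Without MSR1 KO replicate 2 the log2 fold change went from 0.08 to -0.14. Of 18 tested genes for the processing, receptors and signalling of TNF, 1 was a higher DEG and 1 a lower DEG, close to the shares over all tested genes. These were Ltb, encoding lymphotoxin beta, with a log2 fold change of 1.16, and Rhbdf1, encoding a rhomboid-like partner of the enzyme that sheds TNF, with -0.71.

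**Figure D2:**
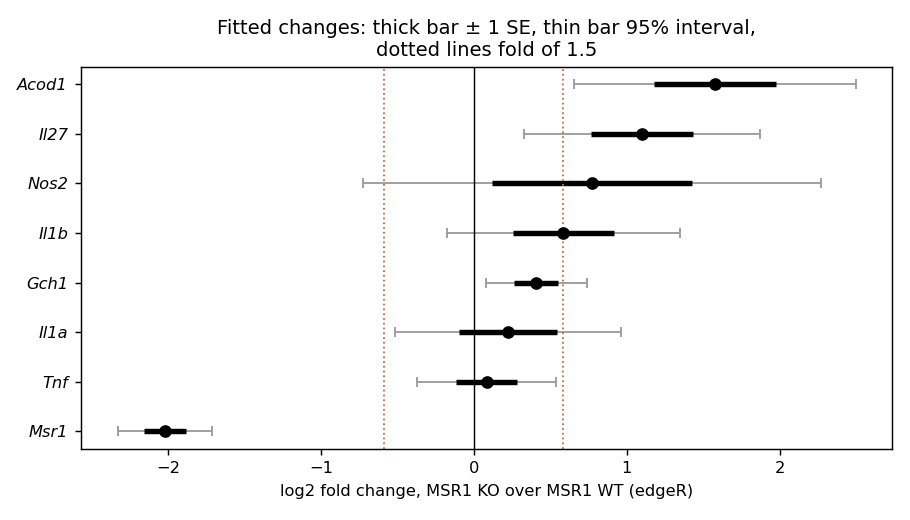
Log2 fold change of MSR1 KO over MSR1 WT (x axis, edgeR) of the 7 tested genes and of Msr1, as points with thick bars of 1 SE and thin bars of the 95% interval, a line at 0 and dotted lines at the study's fold of 1.5 in each direction. The intervals of Acod1, Il27 and Gch1 lie above 0, and those of Il1b, Nos2, Il1a and Tnf include it.

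The interleukin 12 family pairs a helical subunit with a receptor-like one. Il12a and Il12b encode the p35 and p40 subunits of interleukin 12, p40 is also a part of interleukin 23, and the p28 subunit encoded by Il27 joins the product of Ebi3 to form interleukin 27. Il12a (chromosome 3, 68690644 to 68698547, plus strand) had 8 counts in MSR1 KO replicate 3, 4 in MSR1 WT replicate 2 and 0 elsewhere. Il12b (chromosome 11, 44400063 to 44414033, plus strand) had 5, 9 and 19 counts in MSR1 KO, against 0 in every wild type library, a knockout mean of 0.258 ± 0.138 CPM (SD, n = 3). With 3 counts over the MSR1 WT group as the limit (0.0231 CPM), the pooled MSR1 KO level of 0.27 CPM was 11.7 times that limit. Without MSR1 KO replicate 3 it was 8.01 times the limit. These ratios leave out the counting error of the MSR1 KO counts and the spread between libraries, so they are not lower bounds on the fold. Over all genes tested, 12.1% had every MSR1 KO library above every MSR1 WT library. The exact two-sided permutation test gave p = 0.1, the smallest value that 3 against 3 libraries allow. Without the filter on low counts, the adjusted p of Il12b in edgeR's quasi-likelihood test with Benjamini-Hochberg adjustment was 0.112 among 25014 genes. It met the study's definition there and in DESeq2, with unadjusted p-values of 0.00504 and 0.00105. Both tests compare with a group at 0 counts, so the call is not separate support beyond the absence of counts in MSR1 WT. All of this rests on 33 counts. Ccr7, a receptor of migrating dendritic cells, was read with the dendritic cell list. It was also lowest in MSR1 KO replicate 1 and highest in MSR1 KO replicate 3, at 0.334, 0.703 and 1.29 CPM. The MSR1 WT libraries had 0, 0.190 and 0.218 CPM of Ccr7. Among other markers of that list, Kit had the same knockout order (19.5, 21.7 and 21.8 CPM). Flt3 (0.473, 0.402 and 0.0861 CPM) and Itgax (25.2, 18.4 and 15.4 CPM) had the reverse order. Xcr1 and Fscn1 were highest in MSR1 KO replicate 2. The summed level of all 14 dendritic cell markers was lower in MSR1 KO, at 93.4 to 122.6 CPM, than in MSR1 WT, at 161.4 to 260.6 CPM. Most of that difference was Itgax, and without it (left out after the values were seen) the sums of 71.4, 104.0 and 78.1 CPM in MSR1 KO and 83.8, 84.1 and 117.0 CPM in MSR1 WT overlapped. Xcr1 (log2 fold change 2.04), Kit (1.04) and Ccr7 (2.49) were higher DEGs of that list. The part of dendritic cells in the Il12b counts was not tested.

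Il27 (chromosome 7, 126589010 to 126594941, minus strand) had 3.04, 3.59 and 1.70 CPM in MSR1 KO, compared with 0.994, 1.496 and 1.38 CPM in MSR1 WT. All MSR1 KO libraries were above all MSR1 WT libraries, with MSR1 KO replicate 3 nearest to them, as for Acod1. The means were 2.78 ± 0.972 CPM (SD, n = 3) and 1.29 ± 0.263 CPM (SD, n = 3). The fold was 2.14 (95% interval 1.25 to 3.66, unadjusted p of 0.011), and the adjusted p of edgeR's quasi-likelihood test with Benjamini-Hochberg adjustment was 0.116, with a range of 0.0543 to 0.306 over the alternatives. Its log2 fold change lay between 0.87 and 1.36 when each library was left out, and it stayed a DEG in each. Of its exon bases, 10.1% are shared with Apobr on the other strand, a lipoprotein receptor gene at 145, 143 and 126 CPM in MSR1 KO and 122, 104 and 124 CPM in MSR1 WT, so some of the counts may be of either gene.

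Ebi3, the partner of Il27, had 146, 135 and 173 CPM in MSR1 KO and 148, 146 and 139 CPM in MSR1 WT, and the groups overlapped. Its log2 fold change was 0.07, which turned to -0.04 without MSR1 KO replicate 3. On the receptor side, Il12rb1, the beta 1 chain shared by the receptors of interleukins 12 and 23, had 27.98, 60.5 and 17.1 CPM in MSR1 KO and 6.50, 5.04 and 7.14 CPM in MSR1 WT. Its log2 fold change of 2.50 had an adjusted p of 0.0226 in edgeR's quasi-likelihood test with Benjamini-Hochberg adjustment. Il12rb2, the beta 2 chain, had 1.07 with an adjusted p of 0.0257 in the same edgeR test with Benjamini-Hochberg adjustment. These were the 2 DEGs among 9 tested genes of the interleukin 12 family list, and both were higher. Natural killer and T cells use these receptors, and the summed level of the 12 T and NK cell markers was 142 to 203 CPM in MSR1 KO and 100.2 to 167 CPM in MSR1 WT. Most of that sum was Cd4 (88.42 to 136.4 CPM), and without it (left out after the values were seen) the sums were apart, at 50.6, 50.2 and 66.7 CPM in MSR1 KO and 16.1, 11.8 and 32.8 CPM in MSR1 WT. Of 8 tested markers 4 were higher DEGs, namely Gzmb (granzyme B, log2 fold change 1.90), the natural killer receptor gene Klrb1c (1.39), Lck (1.45) and Trac (1.12), the last of which lost its call under 6 of the alternatives. Cd3e, which marks T cells and not natural killer cells, was at or below 0.194 CPM in every library. The part of such cells was not tested.

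Promoter windows from RefSeq (GRCm38.p6) were matched to 7 of the 10 genes. Those of Acod1, Il12b and Gch1 are shown because these are the genes with a window whose groups did not overlap. Each run gives the 250 bases before the RefSeq transcription start on the gene's strand, at chr14:103046762-103047011 (plus), chr11:44399813-44400062 (plus) and chr14:47189414-47189663 (minus), and capitals mark matches to the searched motifs.
Acod1: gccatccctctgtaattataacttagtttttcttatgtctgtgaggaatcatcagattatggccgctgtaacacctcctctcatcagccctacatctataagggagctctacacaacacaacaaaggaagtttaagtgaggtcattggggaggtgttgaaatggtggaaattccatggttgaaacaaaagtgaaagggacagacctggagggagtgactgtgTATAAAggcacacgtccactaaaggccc
Il12b: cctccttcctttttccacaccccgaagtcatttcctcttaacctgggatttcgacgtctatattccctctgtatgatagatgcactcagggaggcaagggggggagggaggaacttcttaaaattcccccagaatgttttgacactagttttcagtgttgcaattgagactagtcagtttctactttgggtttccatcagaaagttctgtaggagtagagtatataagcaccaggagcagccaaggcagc
Gch1: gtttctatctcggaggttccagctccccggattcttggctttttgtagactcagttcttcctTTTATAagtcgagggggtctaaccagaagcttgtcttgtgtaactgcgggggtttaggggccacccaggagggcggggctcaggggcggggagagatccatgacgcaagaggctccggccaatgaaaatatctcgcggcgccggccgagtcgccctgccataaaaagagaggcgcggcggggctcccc

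The motifs, searched on both strands, were TATAAA (the box of that name), GAAA followed after any 2 bases by GAAA (the core of an interferon-stimulated response element), TTC followed after any 3 bases by GAA (a STAT site) and TGA followed after any base by TCA (an AP-1 site), found in 12.4%, 2.98%, 7.02% and 6.75% of the 32851 windows of this length. The capitals in Acod1 are TATAAA, starting 28 bases before the RefSeq start. That start lies 35 bases inside the span of Acod1 given above, so these letters are within the gene as counted, while the starts of Il12b and Gch1 are the same in both annotations. The same letters began 29, 31 and 32 bases before the start in Tnf, Il1b and Il1a, so 4 of the 7 genes had them near this distance. In Gch1 they lay on the other strand, 188 bases before the start. The AP-1 letters were found once, in Il1a, 12 bases before the start. The interferon and STAT letters were found in none of the 7 genes, and Il12a and Il12b had no match to any of the 4, which says only that these letters are not in these windows.

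The interferon-induced genes gave a measure of the pathway that is held to drive much of classical activation. All 15 of that list were higher DEGs, with a median log2 fold change of 1.54. Their summed level was 2791, 3305 and 2149 CPM in MSR1 KO and 826.1, 670.3 and 1299 CPM in MSR1 WT. MSR1 KO replicate 2 was highest and replicate 3 lowest among the knockout libraries in this sum, in Acod1 and in Il27. In the wild type libraries the sum and Acod1 did not share an order, since Acod1 was highest in replicate 2, where the sum was lowest. The part of interferon in the levels of Acod1 and Il27 was not tested.

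**Figure D3:**
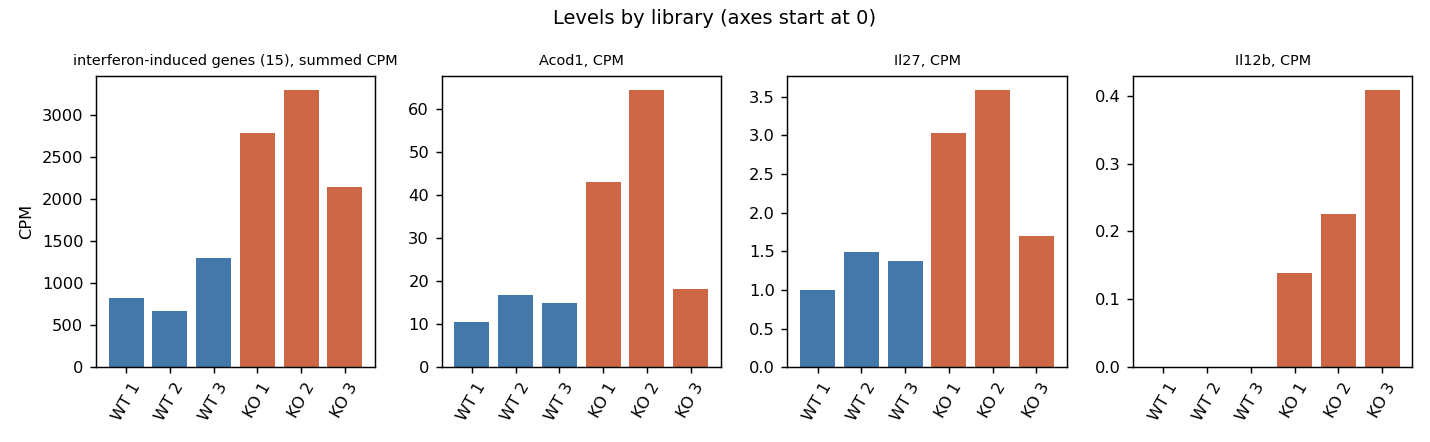
Summed CPM of the 15 interferon-induced genes and CPM of Acod1, Il27 and Il12b (linear y axes from 0), with one bar for each of the 6 libraries, MSR1 WT in blue and MSR1 KO in orange. All MSR1 KO bars are above all MSR1 WT bars in each panel, and MSR1 KO replicate 3 is the lowest knockout bar for the sum, Acod1 and Il27 but the highest for Il12b.

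Among 28 tested receptors and transcription factors that induce these genes, 5 were higher DEGs and 1 was a lower DEG. Among the higher ones were Socs1 (log2 fold change 1.36), which dampens interferon signalling, Batf2 (1.10), Irf1 (1.02) and Irf5. Tlr4, the receptor of lipopolysaccharide, was lower at -1.57, but its groups overlapped. MSR1 WT replicate 2 (36.3 CPM) was below MSR1 KO replicate 1 (49.1 CPM). The adjusted p of Tlr4 was 0.115 in edgeR's quasi-likelihood test with Benjamini-Hochberg adjustment. Irf5, with 0.60, and Nfkb1, with 0.02, were named after their values were seen. Leaving out MSR1 KO replicate 1 or MSR1 WT replicate 2 ended the call of Batf2.

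Other markers of classical activation outside the 10 genes gave 6 higher DEGs and no lower one among 23 tested, with a median log2 fold change of 0.44. They included Cxcl10 (1.27), a chemokine induced by interferon, Ccl5 (0.99) and Gpr18 (0.90), and Ccr7 (2.49), whose call was lost without MSR1 KO replicate 3. The call of Gpr18 was lost without MSR1 KO replicate 2, MSR1 WT replicate 1 or MSR1 WT replicate 2. Il6 had counts in 1 library only, MSR1 KO replicate 1, at 0.139 CPM. Ifng and Ifnb1, which encode the interferons themselves and were read after their values were seen, had at most 4 and 8 counts in any library.

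Of 19 tested markers of alternative activation, 5 were higher DEGs and none was lower, with a median of 0.15. Retnla (2.31) and Arg1 (1.62) rested on MSR1 KO replicate 1, and without it their log2 fold changes were 0.21 and 0.40. Ccl22 (1.26) was lost under 8 of the alternatives, and Il10 (0.84) without MSR1 WT replicate 2. The fifth was Tgm2, named after its values were seen. Mrc1, the mannose receptor, was lower by -0.39 with an adjusted p of 0.0369 in edgeR's quasi-likelihood test with Benjamini-Hochberg adjustment, short of the study's fold. Cd163, which the study used as an M2-like (alternative) marker and which is named after its values were seen, was lower by -0.39. Its groups overlapped, with an unadjusted p of 0.0223 and an adjusted p of 0.171 in the same edgeR test. Higher DEGs thus occurred among markers of both kinds, and the 2 lists were not tested against each other.

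**Figure D4:**
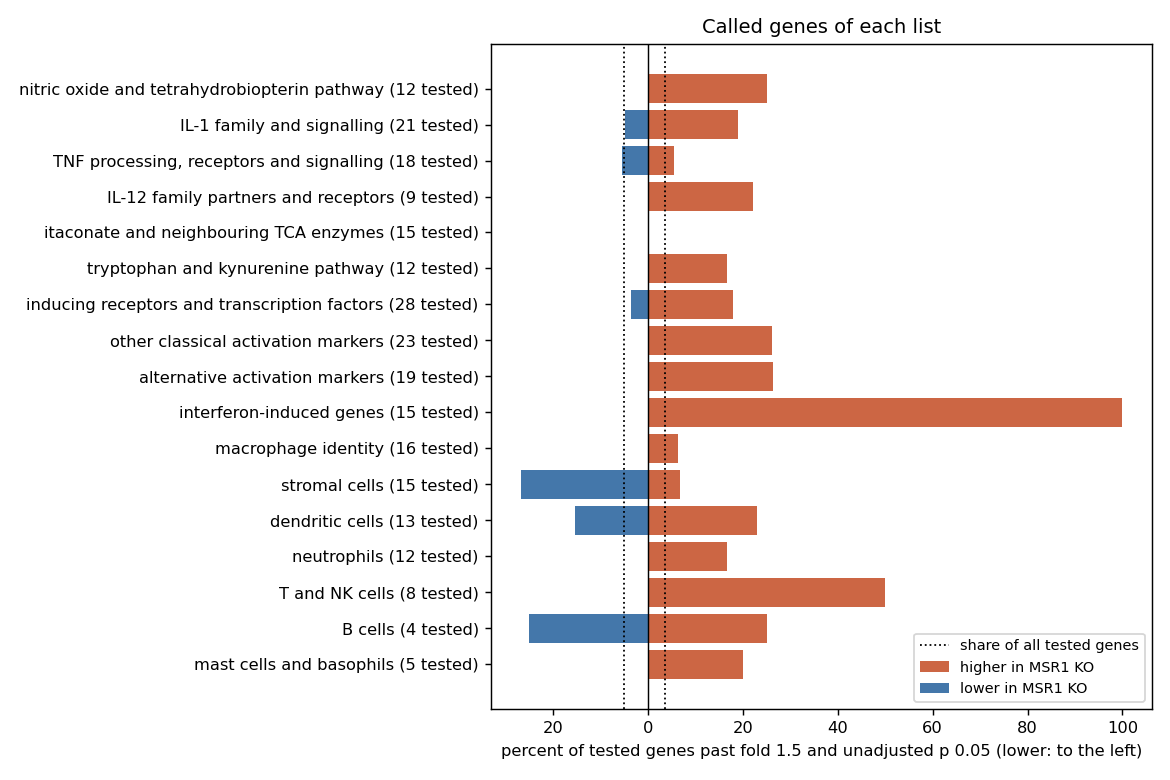
Share of the tested genes of each list that were higher (orange, to the right) or lower (blue, to the left) DEGs in MSR1 KO, in percent, with dotted lines at the shares over all tested genes, 3.59% higher and 5.05% lower. All 15 interferon-induced genes and none of the 15 itaconate and citric acid cycle enzymes are called. The lists were chosen with earlier results of these data known.

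Markers of other cell types that the cultures could hold were read as well. Of 15 tested stromal genes 1 was higher and 4 were lower, their sum being 2195 to 2855 CPM in MSR1 KO and 2849 to 3445 CPM in MSR1 WT. Of 12 neutrophil genes 2 were higher and none was lower (sums of 985 to 1404 and 685 to 1088 CPM). Of 5 tested mast cell and basophil genes 1 was higher, Prss34 (sums of 26.1 to 30.5 and 15.2 to 25.4 CPM). Of that list Mcpt4 and Tpsb2 were at 0, while Prss34, Mcpt8 and Cpa3 had counts in every library. Of 4 tested B cell genes 1 was higher and 1 lower (266 to 314 and 188 to 237 CPM). Of 13 tested dendritic cell genes 3 were higher and 2 lower, among the latter Itgax at -2.50. Their part in the levels of the 10 genes was not tested.

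The genes whose profile over the 6 libraries was most like those of the 2 DEGs were sought among 13605 genes by the root mean square distance of log2 CPM, after centring each gene. Nearest to Il27 were Gm20496, Kynu and Irf1, at distances of 0.14, 0.141 and 0.159 against a median of 0.655 over all genes. Kynu and Irf1 had log2 fold changes of 1.09 and 1.02. Gm20496 lies wholly within exons of Psmb8 and Tap2 on the other strand, so its counts are uncertain. Nearest to Acod1 were Gm43302, Nlrc5 and Gm18852, at 0.248, 0.304 and 0.317 against a median of 0.931. Nlrc5, a regulator of class I antigen presentation genes, had 204.5, 287.0 and 115.4 CPM in MSR1 KO and 76.23, 67.78 and 93.15 CPM in MSR1 WT. Gm43302 shares 81.6% of its exon bases with Gbp10 and Gbp6, and Gm18852 is annotated as a pseudogene, so both are uncertain.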

How the data were processed

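Poly(A) RNA libraries of 3 MSR1 KO and 3 MSR1 WT BMDM cultures were sequenced by the authors on an Illumina HiSeq instrument. The study's methods name TopHat, while the submitters' processing notes list fastp 0.17.1, HISAT2 2.1.0, DESeq2 1.18.1 and R 3.4.3; the counting program, strand setting and genome build are not given in the sources used here. The deposited table holds the authors' raw counts per gene, which were used, and signal columns (counts divided by size factors by the authors). Its columns of the authors' fold changes and p-values were not used. Of 52550 identifiers 52403 were in GENCODE M21 (GRCm38), from which coordinates and exon lengths were taken.

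Genes passing filterByExpr (16402) were tested with edgeR 4.0.16 in R 4.3.3 (TMM, quasi-likelihood, no block), with Benjamini-Hochberg adjustment over all of them. Intervals of 95% came from the same fit. Named genes were the 10 members, Msr1, the first gene and up to 4 DEGs with the largest change of each list, the 3 most abundant cell type and alternative activation markers, and the 3 nearest profiles, among genes with a mean of at least 1 CPM, of each DEG among the members. Members and lists were chosen with earlier results of these data known. Results for a few genes of the lists are not reported here. The script was tested on simulated counts. Alternatives were DESeq2 1.42.0, its size factors, no scaling, other filters, a replicate block and leaving out each library. A limma fit of normalised values was not run, since counts were deposited.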

Additional observations from a re-analysis of the deposited data

How the results depend on the processing

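Acod1 and Il27 stayed higher DEGs, and no member became a lower DEG, under all alternatives run. The number of members that were higher DEGs was 2 or 3. The third was Il1b without MSR1 WT replicate 3, and Il12b with DESeq2 or with no filter on low counts, where it was tested. That call of Il12b sets 33 counts against 0 and is not separate support. Members with an adjusted p below 0.05 numbered 1 with DESeq2 and 0 to 1 when each library was left out. When each library was left out, the log2 fold change ran from -0.058 to 0.488 for Il1a, from 0.38 to 1.08 for Il1b and from -0.14 to 0.24 for Tnf, and the difference in mean CPM ran from -0.0281 to 0.058 for Il12a. Over all genes, adjusted calls numbered 695 higher and 795 lower with DESeq2, 237 and 288 with no filter beyond a count above 0, and 18 to 407 and 53 to 372 when each library was left out, against 369 and 436. The fewest came without MSR1 WT replicate 1 and the most without MSR1 WT replicate 3, and each of the 5 libraries other than MSR1 WT replicate 3 moved these counts by over 1.5 times. The cause was not tested. Shared replicate numbers did not pair the libraries (correlations of deviations -0.0261, 0.0187 and -0.0048, with 2 of 6 libraries closest to their own number). A replicate block gave 59 higher and 78 lower adjusted calls. Of the genes named beside the members, directions turned for Cd22 (from -0.005 to 0.333), Cd4 (from -0.189 to 0.111), Ebi3 (from -0.037 to 0.145) and Ngp (from -0.004 to 0.574) on leaving out a library, for Flt3 (0.177 with the replicate block, and from -0.746 to 0.404 on leaving out a library) and for Tnfrsf1a (-0.009 with library size alone). In 46 further cases such a gene lost its call and in 1 it gained one; 767 kept direction and call. Depth limits Nos2, Il12a, Il12b and Ido1 most.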
